A study of Mus musculus with 8 samples.

Results

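The dermal cells described here were chosen by measured values from a single-cell RNA-seq library of E14.5 mouse forelimb. A cell was taken as dermal when it held at least 1 UMI (unique molecular identifier, 1 counted transcript) of at least 4 of 7 genes, *Rspo1*, *En1*, *Lef1*, *Nkd2*, *Axin2*, *Irx1* and *Col7a1*. Of the 8381 cells with at least 3000 UMIs and at most 10% mitochondrial UMIs, 667 met the rule (7.96%, exact 95% interval 7.39 to 8.56%), and they were compared with the other 7714 cells. Since the cells were chosen on transcripts of the same library, and a single library stands behind them, every level below is a description of these cells and no test was made. Intervals cover counting error only.

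The series holds 8 libraries, 6 of them sorted tdTomato+ cells from E11.5 to E16.5 and the other two of whole E11.5 limbs, with 53085 filtered cells among 57469 barcodes. All sorted embryos were *Hic1* CreERT2/CreERT2; *Rosa26* LSL tdTomato/tdTomato on the C57BL/6J strain, from dams given 7.5 mg tamoxifen by gavage at embryonic day 10. The red fluorescence therefore marks cells in which the *Hic1* promoter drove the Cre at about that time, and their progeny. Per the study's methods, forelimbs of several embryos were pooled and cells with blood or endothelial surface markers were gated out, so neither litter nor embryo can be followed. The E14.5 library held 9189 barcodes and 135534751 UMIs, and dermal cells were somewhat deeper than the others (median of 17431 against 14099 UMIs per cell, and of 4314 against 3827 genes). Barcodes shared with each other library numbered between 0 and 25, and none of those cells met the rule in both.

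The dermis of the limb forms from mesenchyme beneath the surface ectoderm. Ectodermal Wnt ligands stabilise β-catenin in the underlying cells, which then acts with TCF and LEF factors on target genes, several of which (*Axin2*, *Nkd1*, *Notum*, *Dkk1*) damp the same pathway. R-spondins such as *Rspo1* are secreted proteins that keep Wnt receptors at the cell surface, *En1* encodes a homeodomain factor of ventral limb ectoderm and of dermal lineages, and *Col7a1* encodes the collagen of the anchoring fibrils that tie the epidermis to the dermis.

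As the rule used targets of this pathway, promoter windows of 250 bases upstream of the RefSeq start site were searched for the TCF/LEF core letters CTTTGAT on either strand (reverse complement ATCAAAG). Shown are both Wnt feedback genes whose windows held the letters and a pair of rule genes whose windows did not, from RefSeq on GRCm38.p6, written 5′ to 3′ in the direction of transcription, with the match in capitals. The *Sp5* window was chr2:70474673-70474922 on the plus strand, that of *Tnfrsf19* was chr14:61037988-61038237 on the minus strand, that of *Axin2* was chr11:108920099-108920348 on the plus strand and that of *Rspo1* was chr4:124986180-124986429 on the plus strand.
Sp5: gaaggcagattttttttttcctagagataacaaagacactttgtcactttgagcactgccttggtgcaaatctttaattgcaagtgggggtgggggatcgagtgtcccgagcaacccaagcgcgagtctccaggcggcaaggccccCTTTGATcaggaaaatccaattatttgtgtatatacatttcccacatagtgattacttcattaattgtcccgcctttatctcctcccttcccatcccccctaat
Tnfrsf19: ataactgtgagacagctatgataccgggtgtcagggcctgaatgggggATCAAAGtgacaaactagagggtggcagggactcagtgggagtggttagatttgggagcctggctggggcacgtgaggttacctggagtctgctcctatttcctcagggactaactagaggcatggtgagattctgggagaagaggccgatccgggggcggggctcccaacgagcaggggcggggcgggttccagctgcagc
Axin2: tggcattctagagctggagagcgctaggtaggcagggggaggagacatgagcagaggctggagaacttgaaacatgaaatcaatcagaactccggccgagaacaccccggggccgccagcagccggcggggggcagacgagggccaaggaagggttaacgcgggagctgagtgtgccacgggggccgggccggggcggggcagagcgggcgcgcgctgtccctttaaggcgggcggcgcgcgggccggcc
Rspo1: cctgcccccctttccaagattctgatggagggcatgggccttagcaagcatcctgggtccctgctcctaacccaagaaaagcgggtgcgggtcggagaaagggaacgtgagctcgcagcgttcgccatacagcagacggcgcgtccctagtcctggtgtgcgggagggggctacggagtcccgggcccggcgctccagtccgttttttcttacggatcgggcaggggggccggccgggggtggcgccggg
The match ended 97 bases before the start site in *Sp5* and 195 bases before it in *Tnfrsf19*. The *Tnfrsf19* window lies inside its gene model (60963875 to 61046490), so its start site is not the outermost one. Where a window of a gene held the letters, its windows without them are not shown. The letters were present in 3.21% of all 32851 windows, in 0 of 9 windows of the 6 rule genes that had one, and in 2 of 22 windows of the 15 Wnt feedback genes that had one. Among genes with a window, they were found for 3.04% of those called higher in the dermal cells, 4.90% of those called lower and 2.69% of all genes tested, so the windows of the dermal genes held them about as often as those of other genes. A window without the letters says nothing of the factors that act there.

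The number of rule genes per cell fell off without a gap. Of the filtered cells, 4017 had none of the 7 genes, 2393 had 1, 922 had 2 and 382 had 3, against 253 with 4, 195 with 5, 150 with 6 and 69 with all 7. The count depended on depth: after every cell was thinned to 3000 UMIs, 86 of the 667 dermal cells (12.9%) still showed 4 or more, and 270 showed 3 or more. Sorted at that equal depth by the other 6 genes, each of the 7 genes was found more often where the others were. The share with *Irx1*, a homeobox factor of the Iroquois family, went from 5.01% of cells with none of the others to 74.3% (65.3 to 82.1%) of cells with 3 or more, and that with *Rspo1* from 0.686% to 49.3% (41.1 to 57.6%). The other 5 reached between 12% (*Nkd2*, which binds Dishevelled and damps Wnt signals) and 20.9% (*Axin2*, a scaffold of the β-catenin destruction complex) in the same cells.

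**Figure D1:**
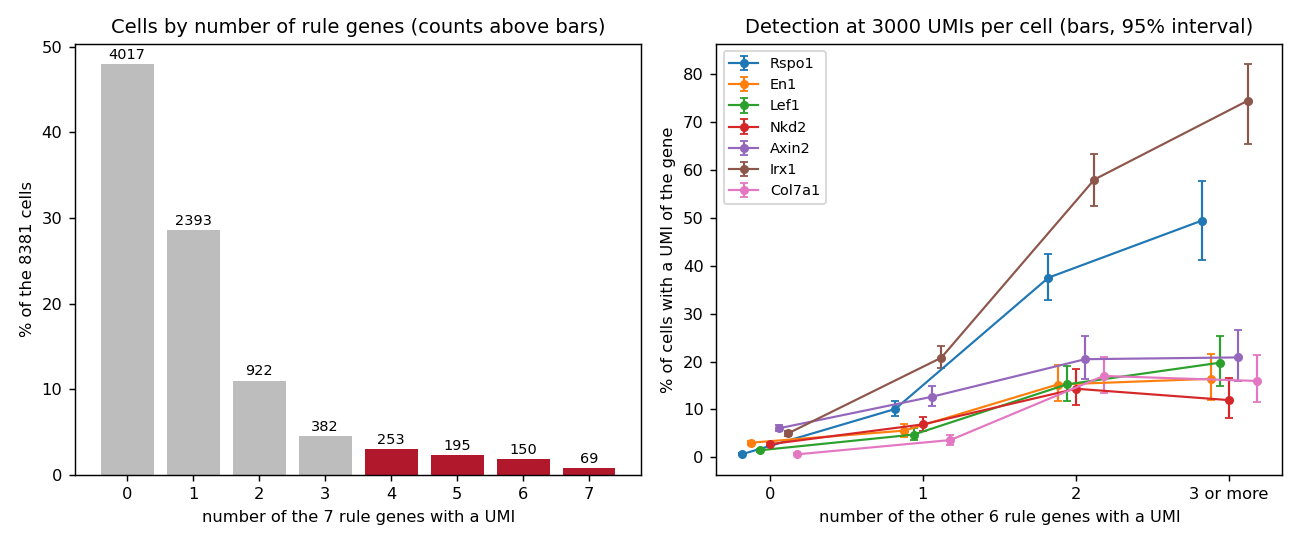
Left, share of the 8381 filtered E14.5 cells (%) by how many of the 7 rule genes had a UMI, with cell numbers above the bars and the dermal cells in red. Right, share of cells with a UMI of each gene (%, 95% interval) by how many of the other 6 had one, at 3000 UMIs per cell; all 7 lines lie higher at 2 or more than at 0, and *Irx1* reaches 74.3%.

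Levels of the rule genes in the dermal cells differed widely. On the scale of CPM (the UMIs of a gene scaled to 1000000 summed UMIs of a set of cells), *Irx1* stood at 507 in the dermal and 22.8 in the other cells, and *Rspo1* at 255 and 7.18. *Axin2* stood at 102 and 22.2, *En1* at 82.9 and 12.8, *Lef1*, which encodes the DNA-binding partner of β-catenin, at 79.8 and 5.93, *Col7a1* at 69.3 and 2.55, and *Nkd2* at 63.2 and 12.5. Per cell, *Irx1* had a median of 4.74 UMIs per 10000 (quartiles 2.23 and 7.82, highest 21.9), and *En1* a median of 0.448 and a highest value of 11.5. The share of dermal cells with a UMI ran from 55.2% for *En1* to 98.1% for *Irx1*. Cells with at least 4 chondrogenic genes gave 5.81% and 11.9% for the same genes at a median depth of 15334 UMIs. They gave no floor for *Irx1*, which stood at 21.9 CPM in them and 10.2 in cells with at least 4 tenogenic genes. Thinned to 3000 UMIs, the shares were 19.6% against 1.22% for *En1* and 72.1% against 4.59% for *Irx1*. Both are rule genes, so these gaps follow from the choice of cells.

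Cells just inside and just outside the rule were alike in depth but not in content. The 253 cells with exactly 4 rule genes had a median of 16435 UMIs and the 382 cells with exactly 3 a median of 16831.5. *Calb1* stood at 143 CPM inside and 39.7 outside, *Nrgn* at 254 and 98.5, and *Sp5* at 79.4 and 37.9. The tendon gene *Tnmd* stood at 11.1 inside and 101 outside. These are sums over mixed cells: 62, 38 and 29 of the 382 lay in the 3 clusters that held most dermal cells, whose cells outside the rule held *Tnmd* at 4.21 CPM.

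Leiden clustering of the library without the 7 rule genes gave 25 clusters, and 3 of them held 566 of the 667 dermal cells (84.9%, 81.9 to 87.5%). These 3 were picked because cells that met the rule were at least 3 times as frequent in them as in the library. The interval does not cover that choice. Of the 750 cells in these clusters, 75.5% met the rule. The largest, of 417 cells, was led by *Rspo1*, *Calb1* and *Ass1* (*Rspo1* and 6 others having been left out of the clustering itself). Another of 247 cells was led by *Nrgn*, *Sp5* and *Lix1*, 99.2% of its cells having UMIs of 3 or more mitosis genes. The smallest, of 86 cells, was led by *Calb2* and *Pax1*. The 184 cells in these clusters that missed the rule had a median of 3 rule genes and carried *Sp5* at 94.2 against 142 CPM in the 566, *Bcl11b* at 246 against 321, *Nrgn* at 251 against 588 and *Calb1* at 125 against 391. *Calb2* (61.8 against 67.8 CPM) was alike and *Pax1* (104 against 82.7) stood above the 566.
Among the 101 dermal cells elsewhere, 56 lay in a cluster led by *Cbln4*, *Dpt* and *Gatm*. These 101 cells carried *Calb1* at 12.7 CPM against 391 in the 566, and *Twist2* at 200 against 470, but *Lum* at 1304 against 1552 and *Col14a1* at 253 against 202. They also held more *Tnmd* (64.1 against 13 CPM) and *Col2a1* (114 against 25.1). A cluster led by endothelial genes held 2 dermal cells, and clusters led by keratinocyte genes held 1 and 4. A doublet caller, Scrublet, marked 0 of 8381 cells and so did not work here. The median doublet score was 0.0279 in the dermal and 0.0452 in the other cells, and the part of doublets in the rule was not tested.

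Across the transcriptome, 423 of 8577 genes (4.93%) were at least 2-fold higher and 400 (4.66%) at least 2-fold lower in the dermal cells, with a median log2 ratio of 0.00. The counts given for each gene list are to be read against these shares, about 1 gene of 20 in either direction. They are descriptions only, since a gene well under 10 CPM in one set was compared only because it was high in the other. The ratio is that of CPM + 1, and genes at 10 CPM or more in either set were compared, without the 7 rule genes. Among genes at 50 CPM or more, *Calb1*, *Nrgn* and *Sp5* had the largest ratios. *Calb1*, which encodes the calcium buffer calbindin, had a median of 1.19 UMIs per 10000 per dermal cell (quartiles 0 and 5.80, highest 36.1) and stood at 325 CPM against 6.14, a 53.0-fold difference (49.0 to 57.3). *Nrgn*, which encodes the calmodulin-binding protein neurogranin, had a median of 3.16 (quartiles 0.267 and 8.73, highest 29.9) and stood at 493 against 10.2 CPM. Dermal cells, 7.96% of the library, held 85.1% of all its *Calb1* UMIs and 83.8% of its *Nrgn* UMIs. *Sp5*, a zinc finger factor and direct target of Wnt signals, had a median of 0.745 UMIs per 10000 (highest 12.8), and stood at 121 against 3.22 CPM, 37.4-fold (33.5 to 41.9).
These 3 genes were widespread but uneven: *Calb1* was detected in 58.6% of dermal cells, *Nrgn* in 75.3% and *Sp5* in 64.8%, against 2.23%, 3.73% and 0.718% of the chondrogenic cells. At 3000 UMIs per cell the shares were 40.6%, 55.2% and 26.2%, against 0.359%, 0.718% and 0.287%.
The next genes were *Lix1* (277 against 11.7 CPM), the zinc finger factor *Casz1* (105 against 4.48), *Ass1*, an enzyme of arginine synthesis (99.0 against 4.78), and the Iroquois factors *Irx3* (113 against 6.65) and *Irx2* (130 against 8.05). *Bcl11b*, a zinc finger factor of skin and T cells, stood at 290 against 21.2 CPM, the Wnt antagonist *Dkk1* at 52 against 3.06, the calcium-binding *Calb2* at 56.3 against 4.18, and *Pax1*, a paired-box factor of sclerotome and shoulder girdle, at 73.2 against 6.37. *Lix1* and *Bcl11b* reached most dermal cells (86.1% and 93.7%), whereas *Calb2* was detected in 66 of the 667.
*Irx1* and *Irx2* lie on chromosome 13, at 71957921 to 71963723 and 72628820 to 72634198, and *Irx3* and *Irx5* lie on chromosome 8, at 91798525 to 91802067 and 92357625 to 92376286 (GRCm38, GENCODE). *Irx5* stood at 200 CPM in the dermal and 26.9 in the other cells, so *Irx2*, *Irx3* and *Irx5*, which the rule did not use, were higher. *Irx4* (1.23 against 0.389 CPM) and *Irx6* (2.30 against 0.637) were too low to be compared.

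**Figure D2:**
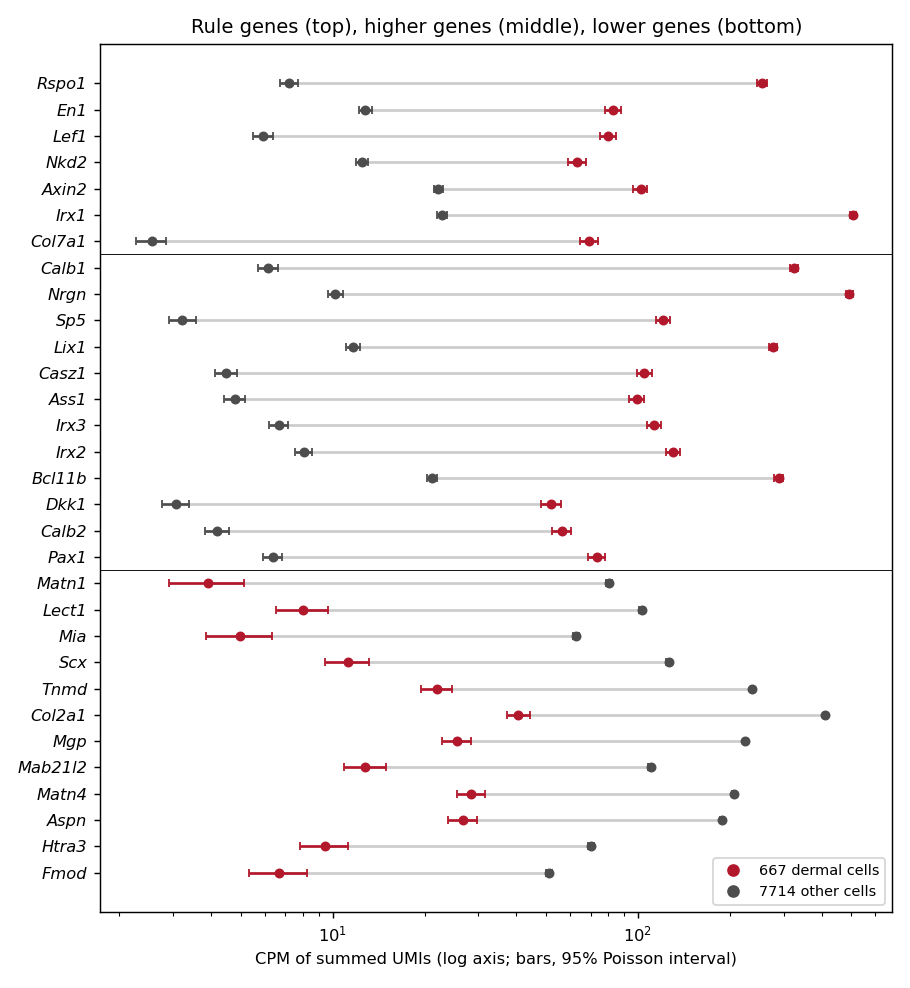
CPM of summed UMIs (log axis, 95% Poisson interval) of the rule genes and of the 12 genes with the largest ratios in each direction at 50 CPM or more, in 667 dermal and 7714 other E14.5 cells. *Nrgn* and *Irx1* stand near 500 CPM in the dermal cells, and the lower genes at the bottom include cartilage and tendon genes and *Mab21l2*.

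Genes of cartilage and tendon were among those furthest lower in the dermal cells, together with *Mab21l2* (12.8 against 110 CPM). All 9 chondrogenic genes at 10 CPM or more were lower (median log2 ratio of −2.59 against 0.00 over all genes tested), 4 of them being under 10 CPM in the dermal cells, with *Col2a1*, the main collagen of cartilage, at 40.6 CPM against 409 and the cartilage matrix gene *Matn1* at 3.91 against 80.5. Of the 51 dermal *Matn1* UMIs, 35 lay in 1 cell, without which it stood at 1.23 CPM, and once cells with keratinocyte or chondrogenic genes were removed from both sets its log2 ratio was −0.08. Of 10 tenogenic genes, 8 were lower (median −2.49), among them *Scx*, the transcription factor of tendon progenitors, at 11.2 against 126 CPM and *Tnmd* at 21.9 against 237. *Mgp*, which encodes an inhibitor of calcification, stood at 25.6 against 225 CPM. Thus 1.05% of dermal cells, thinned to 3000 UMIs, had 3 or more chondrogenic genes, against 11.8% of the other cells, and 2.10% against 16.7% had 3 or more tenogenic genes (unthinned, 19.8% against 31.5% and 29.2% against 51.6%).

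Genes of the Wnt pathway were described by their roles. Among ligands, 3 of 6 compared were higher and 1 was lower, with a median log2 ratio of 1.19. *Wnt11*, a ligand of the β-catenin-independent branch, stood at 139 against 31.0 CPM, *Wnt4* at 88.8 against 29.5, and *Wnt6*, a ligand of ectoderm, at 11.5 against 3.27. *Wnt2* stood at 2.76 against 11 CPM. *Wnt11* was found in 83.2% of dermal and 25.7% of other cells, and *Wnt6* in 12.4% and 2.14%. Without cells that held 3 or more keratinocyte genes, *Wnt6* stood at 8.20 against 1.34 CPM and fell under the minimum, which left 2 of 5 ligands higher (median 0.82).
Receptors showed no common direction, with 3 of 15 higher, 3 lower and a median of −0.32. *Fzd10* stood at 33.1 CPM against 2.99 and was detected in 41.2% against 3.53% of cells, and *Ror2*, a receptor of Wnt5a, at 58.7 against 26.3. *Fzd2*, the most abundant of those named, differed little (422 against 443 CPM). *Fzd8* stood at 11.6 against 63.3 and *Fzd9* at 0.843 against 11.6 CPM, and *Fzd9* was among the leading genes of a cluster of 101 cells led by *Cytl1*.
Of 19 feedback and target genes compared, 10 were higher and 1 lower, with a median of 1.22. Of the 10, 7 were under 10 CPM in the other cells and so were compared only because of their level in the dermal cells, and 4 listed members were below it in both sets. *Axin2*, *Nkd2* and *Lef1* of this pathway were in the rule, so genes that go with them are higher in part by that choice. *Nkd1*, the relative of *Nkd2*, stood at 181 against 24.6 CPM and was found in 87.9% of dermal and 26.5% of other cells. *Tcf7*, which encodes the partner of β-catenin TCF1, stood at 32.1 against 1.88 CPM, and *Notum*, a secreted enzyme that strips the lipid from Wnt ligands, at 15.2 against 0.868. *Tnfrsf19* (54.3 against 4.94 CPM), a receptor induced by Wnt signals, and *Sp5* were the feedback genes with the TCF/LEF letters shown above. *Twist2*, a bHLH factor also known as Dermo1, was present in 98.7% of dermal cells at a median of 4.28 UMIs per 10000 and stood at 423 against 59.8 CPM. *Ccnd1*, which encodes cyclin D1, stood at 326 against 139 CPM. Set against these, *Tcf7l2*, the TCF family member most abundant in the other cells, stood at 62.5 against 226 CPM, while *Ctnnb1*, the β-catenin gene itself, differed little (308 against 284).
Secreted inhibitors that were listed apart from the feedback genes went the other way: 0 of 7 were higher and 4 lower, with a median of −1.36. *Frzb* stood at 1.76 against 18.4 CPM, *Dkk2* at 45.7 against 167, *Sfrp2* at 107 against 276 and *Dkk3* at 5.29 against 19.6. Thus *Dkk1* was higher and *Dkk2* and *Dkk3* lower within the same family.

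**Figure D3:**
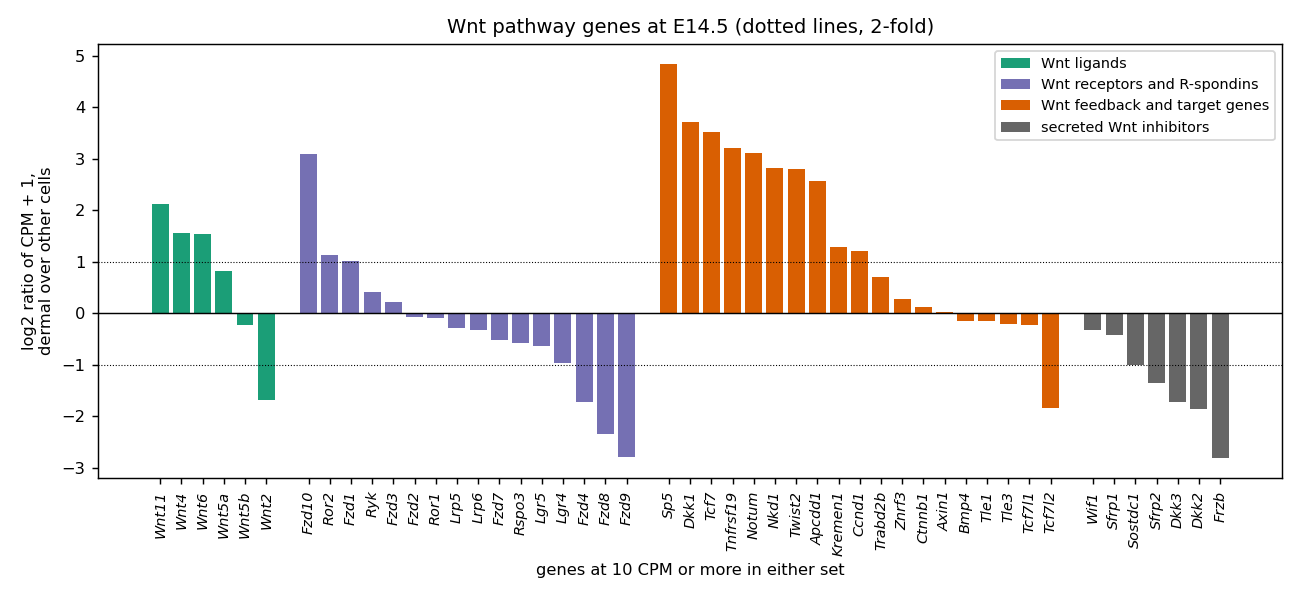
Log2 ratio of CPM + 1, dermal over other E14.5 cells, for Wnt pathway genes at 10 CPM or more in either set, by role, without the rule genes; dotted lines mark 2-fold. Of the feedback and target genes 10 of 19 lie above the upper line, and of the secreted inhibitors 4 of 7 lie below the lower one. Genes of this pathway were in the rule, so the ratios are not independent of the choice of cells.

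The label of dermal fibroblast was checked on genes the rule did not use. Of 20 dermal transcription factors compared, 10 were higher and 2 lower (median 1.08). Besides *Twist2*, *Bcl11b* and the Iroquois genes these included *Twist1* (1234 against 459 CPM), *Runx3* (44.8 against 4.69), *Runx1* (36.9 against 9.42) and *Zeb2* (225 against 48.4). *Msx1*, a homeobox gene of distal limb, stood at 13.9 against 46.4 CPM and *Trps1* at 24.7 against 115. *Prrx1*, common to limb mesenchyme, differed little (261 against 305).
Genes of the papillary layer, the upper dermis next to the epidermis, had 7 of 11 members higher, 3 lower and a median of 1.90, and 4 of the 7 were under 10 CPM in the other cells. *Crabp1*, a retinoic acid binding protein, had a median of 20.3 UMIs per 10000 per dermal cell and stood at 2478 against 573 CPM. *Lrig1* stood at 55.6 against 14.2 CPM, *Col23a1* at 154 against 40.3 and *Ntn1*, the guidance cue netrin, at 25.3 against 9.02. The lower members were *Trps1*, *Col13a1* (4.6 against 27.2 CPM) and *Fibin* (66.3 against 267). Genes of the reticular dermis and hypodermis were mixed, 3 of 11 higher and 4 lower (median 0.21), with *Penk* at 236 against 55.6 CPM and *Col14a1* at 211 against 66.3, but *Meox2* at 26.1 against 152 and *Mfap5* at 6.36 against 42.0. Of 10 markers that later fibroblasts share, 4 could be compared, with 0 higher and 3 lower (median −1.80). The lower ones, *Dpt*, *Mfap5* and *Pcolce2*, were under 10 CPM in the dermal cells and so entered through the other cells. *Cd34* stood at 36.8 against 28.1 CPM and *Dpt* at 9.04 against 19.8. *Pi16* (0.230 against 0.810 CPM), *Ly6a* (0.153 against 0.157) and *Dpp4* (0.537 against 1.05) were near 0 in both sets. As a check of the label these lists are limited, since the rule itself used Wnt targets, and *Sp5*, *Tnfrsf19* and *Apcdd1* stand in both the papillary and the Wnt feedback list. Without them 4 of 8 papillary genes were higher and 3 lower. In the study's lineage tree *Irx1*, *Irx3* and *Irx5* were enriched in the reticular branch, so these counts do not place the cells in a layer. Of the 667 cells, 101 lay outside the 3 clusters that held most of them.
Of the pigment genes, 1 of 6 was higher, the agouti gene *a*, which encodes a signal to melanocytes, at 50.4 against 8.25 CPM.

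The most abundant fibrillar collagen transcripts differed little between the dermal and the other cells, whereas those of cartilage were lower. *Col1a1* stood at 3213 against 2724 CPM, *Col1a2* at 1811 against 1696 and *Col3a1* at 2015 against 2126. *Col11a1*, a collagen of cartilage fibrils, stood at 51.4 against 281 CPM. Of 34 interstitial matrix genes, 7 were higher and 7 lower (median −0.17). *Lum*, which encodes the collagen-binding proteoglycan lumican, had a median of 15.0 UMIs per 10000 and stood at 1508 against 472 CPM. *Col6a1* (466 against 223 CPM), *Col6a2* (354 against 169) and the fibulin gene *Fbln1* (545 against 265) were also higher. *Postn*, a matricellular protein of fascia and tendon, stood at 97.3 against 402 CPM, *Ogn* at 128 against 397 and *Tnc* at 16.6 against 72.7.
Of 15 basement membrane genes, 2 were higher and 3 lower (median 0.33), against 4.93% and 4.66% of all genes. The higher ones were *Frem1*, a protein of the epidermal basement membrane (31.7 against 4.03 CPM), and *Itga8*, an integrin chain that binds nephronectin (43.7 against 11).

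Genes of BMP, FGF and retinoid signals were called in both directions, against 4.93% of all genes higher and 4.66% lower. Of 29 BMP and TGF-beta genes, 4 were higher and 7 lower (median −0.35). The BMP antagonist *Grem1* (66.8 against 20.8 CPM) was higher, as was *Tgfb1* (28.3 against 5.37), whereas *Tgfb2* (37.9 against 155) and *Tgfb3* (16.6 against 48.4) were lower. Among 24 genes of FGF, PDGF and IGF signals, 3 were higher and 6 lower (median −0.06). *Igfbp2* stood at 413 against 167 CPM and *Dusp6*, a feedback phosphatase of FGF signals, at 28.6 against 7.95, while *Igf1* stood at 48.3 against 278 and *Igfbp4* at 391 against 1343. Of 16 retinoid genes, 2 were higher and 7 lower (median −0.62). *Aldh1a2*, an enzyme of retinoic acid synthesis, stood at 2.99 against 18.2 CPM and *Crabp2* at 150 against 302, opposite to *Crabp1*. None of 8 genes of hedgehog reception passed 2-fold in either direction (median −0.22), with *Ptch1* at 17.3 against 29.3 CPM and *Gli1* at 12.4 against 15.1.

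Hox genes were grouped by paralogue number, a grouping chosen after the values were seen. Hox genes of low number are used nearer the trunk, and those of the highest numbers pattern the hand plate. Of 8 genes of numbers 1 to 8 compared, 7 were higher, 0 lower and *Hoxa7* neither (median 2.81), and of 9 genes of numbers 9 to 13, 0 were higher and 5 lower (median −1.09). Of the 7 higher genes 6 were under 10 CPM in the other cells, and of the 5 lower ones 2 were under it in the dermal cells, so these entered through the set where they were high. *Hoxc5* stood at 43.7 against 2.05 CPM, *Hoxc6* at 40.1 against 4.61, *Hoxc4* at 31.0 against 2.73, *Hoxb4* at 16.2 against 1.39 and *Hoxb2* at 35.8 against 4.99. The models of *Hoxc5* (chromosome 15, 102967443 to 103017429) and *Hoxc6* (102998257 to 103011881) overlap, so reads may be split between these neighbours. *Hoxd8* was the most widespread, in 61.6% of dermal and 11.9% of other cells, and stood at 75.8 against 10.3 CPM.
At the other end, *Hoxd13* stood at 19.9 against 62.3 CPM, *Hoxa13* at 6.44 against 17.6, *Hoxd12* at 5.14 against 17.6 and *Hoxd11* at 40.4 against 88.8. The 15 genes of numbers 1 to 8 below 10 CPM include 10 with at least 10 UMIs in the dermal cells, and 8 of those had a higher CPM there. The others were of the HoxA cluster, *Hoxa5* at 3.37 against 5.67 CPM and *Hoxa3* at 1.15 against 2.41. Of the 7 genes of numbers 9 to 13 below 10 CPM, 2 had at least 10 UMIs in the dermal cells, and both ran against the pattern of the higher numbers, *Hoxb9* at 1.38 against 0.165 CPM and *Hoxc9* at 1.15 against 0.00827.
Of 17 other position genes, 4 were higher, 4 lower and 9 neither (median −0.22). *Meis1* (35.6 against 7.23 CPM) and *Meis2* (73.6 against 20.1), factors of the proximal limb, and *Meis3* (21.8 against 10.2) were higher together with *Pax1*. *Lhx9* (6.51 against 19.2 CPM), a LIM factor of the distal limb, and *Ebf1* (98.0 against 463) and *Ebf2* (10.2 against 75.1) were lower. *Meis1* and *Pax1* were under 10 CPM in the other cells and *Lhx9* in the dermal cells. They were compared only through the set where they were high. *Tbx5*, the forelimb T-box factor, differed little (60.9 against 71.1).

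**Figure D4:**
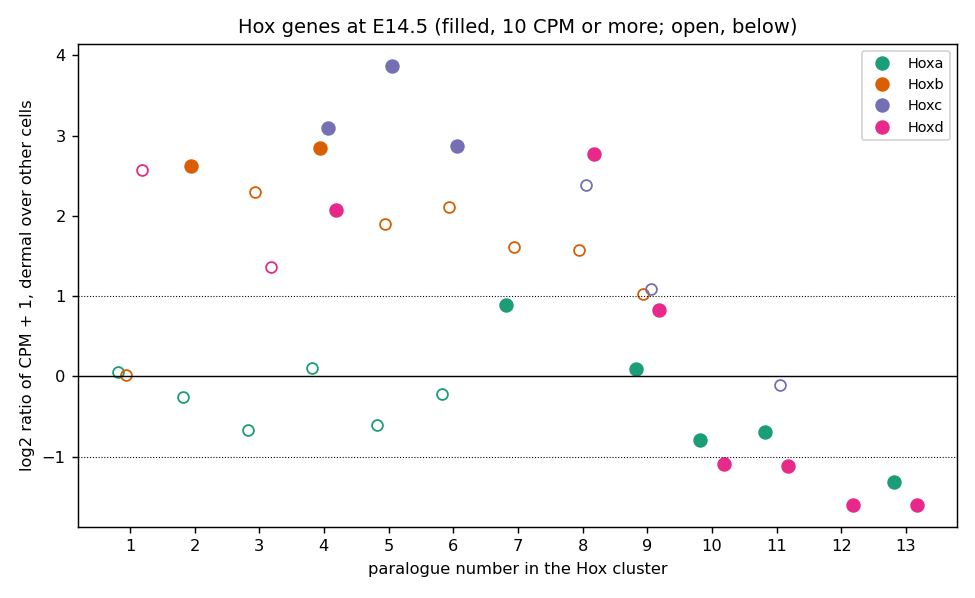
Log2 ratio of CPM + 1, dermal over other E14.5 cells, of each Hox gene by its paralogue number, coloured by cluster; filled points are at 10 CPM or more in either set, open points below, and dotted lines mark 2-fold. Of numbers 1 to 8, 7 of 8 filled points lie above the upper line, and of numbers 9 to 13, 5 of 9 lie below the lower one.

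Transcripts of cell division were found in more of the dermal cells. Of 16 mitosis genes, 11 were at least 2-fold higher and 0 lower (median 1.07), with *Mki67*, a nuclear protein of cycling cells, at 106 against 46.3 CPM, *Cenpf* at 132 against 54.2 and *Ube2c* at 292 against 143. The gap was not the same for every kind of cell. In cells with at least 4 chondrogenic genes they stood at 65.9, 75.5 and 221 CPM, under 2-fold below the dermal cells. At 3000 UMIs per cell, 29.4% (26 to 33%) of dermal and 13.8% (13.1 to 14.6%) of other cells had UMIs of 3 or more of these genes (unthinned, 47.1% and 26.4%). Of 16 DNA replication genes, 2 passed 2-fold, *Rrm2* (135 against 66.3 CPM) and *Uhrf1* (71.7 against 28.6), and all 16 had a ratio above 0 (median 0.62). Dividing cells hold more RNA, and the rule favours deep cells. How far depth moved this share was not tested beyond the thinning, which leaves the choice of cells as it was. With such cells removed from both sets, 410 genes were higher and 449 lower, 329 and 371 of them shared with the lists above.

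Of the marker lists of other cell types, the pericyte (234 against 135 CPM), myogenic (21.7 against 19.3) and erythroid (1.30 against 0.736) lists had higher sums in the dermal cells. Keratinocyte genes summed to 136 CPM in the dermal and 172 in the other cells, and 0 of 8 compared were higher. *Krt14* was at 20.9 CPM, but its 273 UMIs lay in 10 cells, 115 of them in 1 cell. Summed endothelial genes stood at 16.4 against 24.8 CPM, immune genes at 6.97 against 9.47 and glial and melanocyte genes at 6.82 against 9.89, with *Sox10* at 0. Of 5 pericyte genes, *Pdgfrb* (113 against 50.9 CPM) and *Acta2* were higher. Of the 1079 dermal *Acta2* UMIs, 678 (62.8%) came from a single cell, without which the level was 30.8 against 22.8 CPM. The other cells were left as they were, and the cluster led by endothelial genes held 2193 of the 3834 UMIs in the library.
Of the myogenic list only *Myh3*, the embryonic myosin heavy chain, reached 10 CPM, at 11.3 against 0.438. Its 148 UMIs lay in 75 dermal cells, with at most 21 in any of them, and made up 73.6% of the 201 in the library. *Myod1*, *Myf5*, *Myf6* and *Pax7*, which define muscle cells and their progenitors, had 0 UMIs in the dermal cells, and *Myog* had 1. *Myh3* was thus found where these genes were nearly absent. Other listed muscle genes were present: *Tnnt1* had 107 UMIs in 82 dermal cells, *Des* 19 in 14, *Cdh15* 7 in 7 and *Actc1* 1. In the other cells the same genes had 1159, 781, 262 and 63 UMIs. Whether they shared cells with *Myh3* was not tested. The study reported *Myh3*, *Myod1*, *Myf5* and *Pax7* as not detectable in its plots of the combined sorted cells.
The lineage alleles did not separate the sets. *tdTomato* stood at 420 against 428 CPM, and *Hic1*, the gene whose promoter drove the label, at 25.6 against 27.7.

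The dermal cells were not uniform, and they were divided by single genes or short lists to describe how. *En1* was found in 368 and missing in 299. *Crabp1* stood at 2910 CPM with and 1931 without *En1*, *Calb1* at 404 and 225, and *Grem1* at 84.4 and 44.5. *Col14a1* ran the other way, at 167 with and 268 without, as did *Cd34* (20.8 and 57.0). *Sp5* (125 and 115 CPM) differed less. *Rspo1* (236 and 279 CPM) is bound to *En1* by the rule, since a cell without *En1* needed 4 of the other 6 genes.
UMIs of *Hoxa13* or *Hoxd13* were found in 99 dermal cells (14.8%), with a median depth of 22549 UMIs against 16649 in the other 568. *Msx1* stood at 63.4 CPM in the 99 and 2.55 in the 568, *Hoxd12* at 20.9 and 1.51, and *Hoxd11* at 84.3 and 30.3. The proximal genes ran opposite, with *Hoxc5* at 18.4 and 49.5 CPM, *Meis1* at 16 and 40.1, and *Meis2* at 40.5 and 81.2. *Rspo1* was also lower in the 99 (135 against 283 CPM), as were *Sp5* (62.2 against 134) and *Nrgn* (282 against 541), while *Lef1* was alike (81.4 against 79.4). A group with the Hox genes of the hand plate thus carried less of several leading dermal genes. Cartilage genes moved with it, *Sox9* at 72.0 and 17.8 CPM and *Mgp* at 60.6 and 17.5, and 142 of the dermal *Hoxd13* UMIs lay in the 101 cells outside the 3 clusters, against 118 in the 566 inside. Their part in the result was not tested.
*Calb2* was found in 66 dermal cells (9.90%), a division chosen after its values were seen. Median depth was 16742.5 UMIs in these and 17517 in the other 601. *Pax1* stood at 226 CPM in the 66 and 57.0 in the 601, *Runx1* at 121 and 28.1, *En1* at 173 and 73.4, *Grem1* at 138 and 59.3, and *Hoxa11*, a gene of the middle limb segment, at 70.4 and 14.9. *Rspo1* stood at 124 and 269 CPM, *Hoxc5* at 13.6 and 46.9, and *Meis2* at 32.0 and 78.0, whereas *Sp5* was alike (125 and 120). As *En1* and *Rspo1* are rule genes, a cell short of one needed others, and their values in this division are not independent of the choice of cells.
Early genes of dermal condensates, the cell clumps beneath forming hair follicles, were scarce in the dermal cells, though some were rarer still in the others. Of *Sox2*, *Sox18*, *Foxd1*, *Gal*, *Dll1* and *Prdm1*, 2 or more were found in 14 cells (2.10%), and none in 544. *Sox2*, the factor of condensates and papillae, was detected in 1.2% of dermal cells and *Sox18* in 7.05%. In the 14 cells *Bmp4* stood at 125 CPM (91.5 to 168) against 17.6 in the 544, the hedgehog receptor and target *Ptch1* at 86.4 (58.7 to 123) against 14.1, *Cdkn1a*, which encodes the cell cycle inhibitor p21, at 151 (113 to 196) against 35.9, and *Tbx18* at 145 (108 to 190) against 57.4. *Wnt4* was lower there (30.7 against 94.1 CPM). These cells were deeper (median of 22538.5 against 16890.5 UMIs), and *Tnmd* was also higher in them (120 against 21.6 CPM), a gene of tendon. The intervals do not cover differences between the 14 cells, where a single cell can weigh much. Of the 28 dermal *Sox2* UMIs, 14 lay in 1 cell. Of the whole list of 25 condensate and papilla genes, 14 were compared between dermal and other cells, with 4 higher, 1 lower and a median of −0.17.

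Against 3 other kinds of connective cell in the library, the dermal genes stood apart by differing amounts. Sets with UMIs of at least 4 genes of a list, without the dermal cells, were 1393 chondrogenic, 2550 tenogenic and 1187 fibrogenic progenitor cells, and these sets overlap. *Sp5* stood at 121 CPM in the dermal cells, and at 0.700, 1.21 and 1.24 in the others in that order. *Bcl11b* stood at 290 against 9.35, 11.7 and 17.0. *Twist2* was less restricted, at 423 against 43.5, 42.7 and 56.5 CPM, and *Lum* least, at 1508 against 238, 472 and 734. The 3732 cells in none of these sets came nearest for *Sp5* (5.85 CPM), *Bcl11b* (32.8) and *Twist2* (75.1). They are not a further kind of cell set apart from the dermal one. The 184 cells of the 3 dermal clusters that missed the rule count among the other cells throughout. They held 291 of the 390 *Sp5* UMIs outside the rule, at 94.2 CPM against 0.840 in the remaining 7530 cells.

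The same rule was applied to the other sorted libraries, which the choice of the E14.5 genes had not used, each read against the rest of its own cells. It found 6 and 18 cells in the E11.5 and E12.5 sorts, 46 in the E13.5 sort (0.751%), 1121 in the proximal limb at E16.5 (10.1%) and 1201 in its distal limb (14.2%). Thinned to 3000 UMIs, the share was 0.0327% at E13.5, 1.03% at E14.5, and 0.927% and 1.39% in the proximal and distal limb at E16.5. The earlier libraries are shallower, with a median of 6788 UMIs per cell at E13.5 against 14333 at E14.5, and per the study's methods were made with an older reagent kit. Levels in different libraries are therefore given side by side with no comparison, and the E13.5 set falls under 50 cells.
Of the 423 higher E14.5 genes, 335 were compared at E13.5, and 208 of these (62.1%) were higher there too, where 5.47% of all genes were called higher. In the E16.5 proximal library 205 of 342 (59.9%) were higher, against a background of 4.85%, and in the distal library 221 of 349 (63.3%), against 5.35%. As a share of the lists in those libraries, they made up 42.6%, 50.9% and 48.9%. The same 7 genes chose the cells in each library, so the genes that go with them recur in part by the rule.
In the cells that met the rule, *Bcl11b*, *Tcf7*, *Twist2*, *Crabp1*, *Lum*, *Sp5* and *Nkd1* were at least 2-fold higher in all 4 libraries. The log2 ratio of *Sp5* was 4.63 at E13.5 (40 UMIs), 4.85 at E14.5, and 4.44 and 4.09 in the proximal and distal E16.5 libraries, and that of *Bcl11b* was 3.54 (172 UMIs), 3.71, 3.71 and 3.82.
Of the 12 leading E14.5 genes, 11 were called higher at E13.5, 8 in the proximal and 10 in the distal E16.5 library. Those not called were *Ass1* at E13.5 (4.74 against 0.894 CPM, 3 UMIs), *Calb1* and *Calb2* in both E16.5 libraries, and *Casz1* (32.4 against 17.8 CPM) and *Pax1* (6.38 against 2.09) in the proximal one. *Calb1* stood at 139 CPM at E13.5 (88 UMIs) and 325 at E14.5, but at 1.11 and 3.61 in the E16.5 libraries. *Calb2* stood at 17.4 (11 UMIs), 56.3, 0.300 and 1.53 CPM in the same order. *Nrgn* was at 11.1 CPM at E13.5 (7 UMIs), 493 at E14.5, and 154 and 60.7 at E16.5, with a log2 ratio against the rest of its library of 4.12 and 3.07 at the later stage. *Myh3* was at 20.5 CPM at E13.5 (13 UMIs), 11.3 at E14.5 and 0.899 in the E16.5 proximal library, where the rest stood at 0.813. *Runx3* had 0 UMIs in the 46 cells at E13.5 and log2 ratios of 3.01, 3.85 and 3.44 later.
Lists were read in the same way, and differences between libraries were not tested. Hox genes were higher in 3 of 13 compared at E13.5, 7 of 17 at E14.5, 11 of 14 in the proximal and 4 of 10 in the distal E16.5 library, with 3, 5, 0 and 2 lower. Of the Wnt feedback genes, 7 of 17 compared were higher at E13.5, 8 of 17 in the proximal and 9 of 18 in the distal E16.5 library. *Hoxc5* had log2 ratios of 4.32 (25 UMIs), 3.87, 2.31 and 1.22 from E13.5 to the distal E16.5 library, and its level there was 1.70 CPM. Of 16 mitosis genes, 9, 11, 7 and 11 were higher in the 4 libraries in that order, and 5 at E13.5 without cells that held 3 or more keratinocyte genes. UMIs of 3 or more keratinocyte genes were found in 24.0% of the proximal E16.5 cells that met the rule and in 25.2% of the rest, against 3.0% and 4.58% at E14.5. Without such cells 212 of 344 genes (61.6%) were higher in the proximal library and 226 of 350 (64.6%) in the distal one. Of the 12 leading genes, 9 and 10 were then called higher in these libraries.

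**Figure D5:**
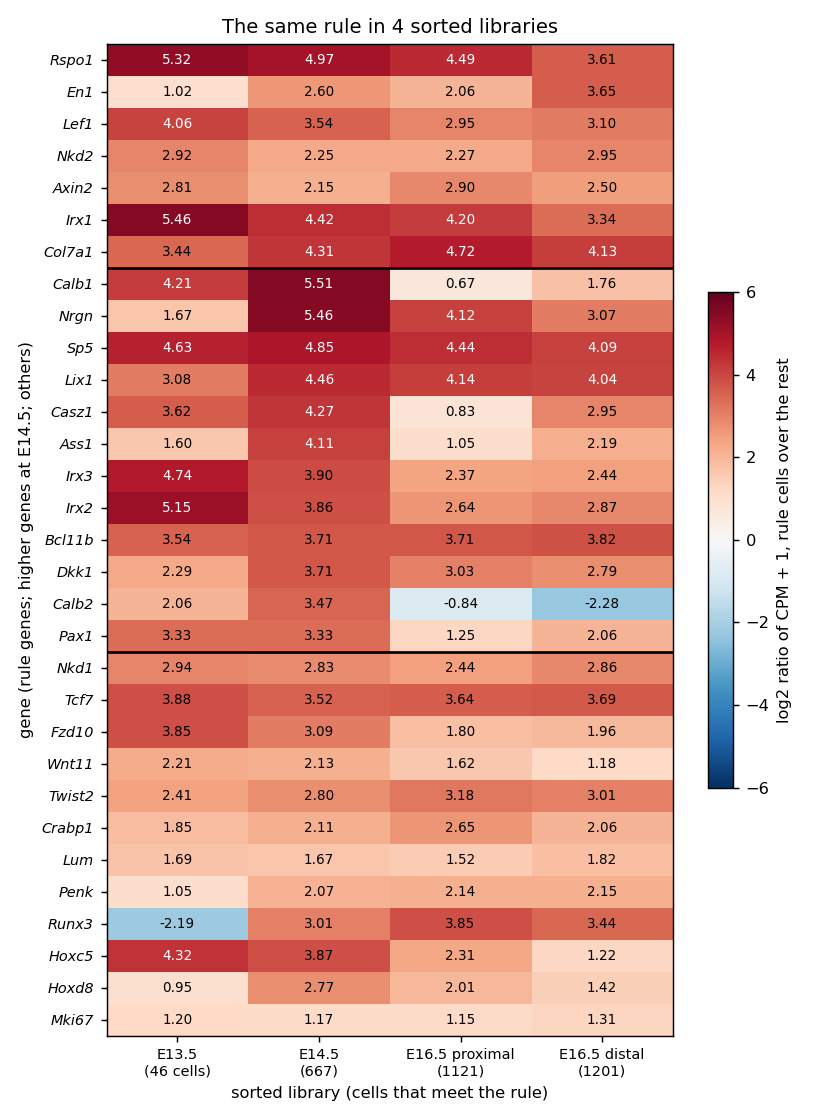
Log2 ratio of CPM + 1, cells that met the rule over the rest of the same sorted library, for the rule genes, the 12 leading E14.5 genes and further genes; numbers in the cells are the ratios. *Sp5* and *Bcl11b* stay between 3.54 and 4.85 in all 4 libraries, whereas *Calb1* goes from 5.51 at E14.5 to 0.67 and 1.76 and *Calb2* from 3.47 to −0.84 and −2.28 at E16.5.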

How the data were processed

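Single-cell libraries were made by the study with 10x Genomics 3′ chemistry. The deposited values are unnormalised UMI counts for each gene in each barcode, which the authors made with the Cell Ranger count pipeline against a modified mm10 reference (28001 features). Samples were grouped by their labels. Here, cells with 3000 or more UMIs and at most 10% mitochondrial UMIs were kept, thinning used a fixed seed, and UMIs were summed per set of cells and expressed as CPM. A gene was called at 2-fold on CPM + 1, among those at 10 CPM or more, leaving out the rule genes, mitochondrial and haemoglobin genes, *Xist*, *Tsix* and Y-linked genes. Intervals are 95% exact Poisson, binomial or ratio intervals. Named are the rule genes, the 12 largest ratios in each direction at 50 CPM or more, and up to 6 members of each of 32 lists. Others named were chosen after their values were seen. The members and lists were chosen with earlier results of these data known. Clusters used scanpy 1.11.5 and leidenalg 0.10.2 (2000 variable genes, 50 components, 25 neighbours, resolution 1), on Python 3.11.15. The scripts were tested on simulated data. RefSeq promoter windows were matched by symbol. Alternatives covered the rule, depth, filters, pseudocount, cell cycle, other cell types, doublets and clustering. The added sequences CreERT2 and SSM2GFP were counted but not described.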

Additional observations from a re-analysis of the deposited data

Results flagged for a closer look

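Of the genes read in several libraries, 2 were at least 2-fold apart in opposite directions at E14.5 and in both E16.5 libraries in the cells that met the rule against the rest of their library, with 10 CPM or more in either set. The difference was not tested in either case. *Calb2* also changed sign (3.47 at E14.5, −0.84 and −2.28 at E16.5) but was under 2-fold and under 10 CPM in the proximal library. *Cyp26b1*, which encodes an enzyme that degrades retinoic acid, had a log2 ratio of −1.01 at E14.5 (7.13 against 15.4 CPM, 93 UMIs), and of 2.05 (48.6 against 11 CPM) and 1.61 (125 against 40.4 CPM) in the proximal and distal E16.5 libraries. Its E14.5 ratio was barely past 2-fold, and it was under 10 CPM in the dermal cells, so it entered through the other cells. *Acta2*, which encodes smooth muscle actin, had a log2 ratio of 1.82 at E14.5, and of −1.67 and −3.48 at E16.5. Of its E14.5 UMIs in the dermal cells, 62.8% lay in 1 cell. Without it *Acta2* stood at 30.8 against 22.8 CPM, under 2-fold, and the contrast with E16.5 no longer met these conditions. That removal was from the dermal side only. A cluster of 42 cells led by endothelial genes, 2 of them dermal, held 2193 of the 3834 *Acta2* UMIs in the library. The contrast without this cluster in either set was not tested. At E13.5, *Acta2* stood at 36.4 against 7.10 CPM (23 UMIs in 46 cells).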

How the results depend on the processing

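The share of dermal cells, 7.96%, followed the rule and the depth. It was 12.5% when 3 of the 7 genes were asked for, 4.94% when 5 were, and 1.03% after every cell was thinned to 3000 UMIs. Leaving a gene out and asking for 4 of the other 6 gave 6.10% without *Rspo1*, 6.99% without *En1*, 6.66% without *Lef1*, 6.72% without *Nkd2*, 5.82% without *Axin2*, 5.09% without *Irx1* and 6.25% without *Col7a1*. The number of genes at least 2-fold higher and lower was 643 and 603 with thinned cells (86 dermal cells), 156 and 119 at a minimum of 50 CPM, and 659 and 747 with no minimum. In the other alternatives the higher genes numbered between 301 and 502 and the lower ones between 286 and 491. With other cells weighted to the depth of the dermal cells, they numbered 345 and 376. The share of dermal cells in the clusters that held most of them was 93.1% at resolution 0.5, where 54.8% of the cells in those clusters met the rule, against 75.5% at resolution 1. Of the 24 genes with the largest ratios, 0 changed direction, and *Matn1* (log2 ratio of −0.08) and *Matn4* (−0.18) fell under 2-fold once cells with keratinocyte or chondrogenic genes were removed. These 24 were chosen for their extreme ratios in the same cells, so the lack of a change in direction says little. Of the 21 alternatives, 3 could not move a ratio, the doublet caller that marked 0 cells and both changes of the minimum CPM. Removing 7% of cells by doublet score, and using only dermal cells in the 3 clusters, were chosen after seeing the data. No paired analysis was possible because each sorted group holds 1 library and no test was made.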
